A study of Mus musculus with 12 samples.

Results

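Cytosolic ribosomal protein genes encode the proteins of the large and the small subunit of the ribosome outside mitochondria. They were selected by name, as genes whose symbol begins with Rpl or Rps and a number, or is Rplp0, Rplp1, Rplp2 or Rpsa, with S6 kinases and pseudogenes left out. The array carried 65 such genes on 96 probes. Of these, 59 genes on 78 probes were detected, among 8746 named genes on 15118 detected probes. A probe was kept where its detection p-value was under 0.01 on at least 3 of the 12 arrays. The 59 genes comprised 27 of the large subunit, 3 of its stalk (Rplp0, Rplp1, Rplp2), 21 of the small subunit and 8 paralogs or genes with a similar name. The 6 genes on the array that did not reach detection were Rpl6, Rpl14, Rpl17, Rpl39l, Rps20 and Rps23, and genes of other cytosolic ribosomal proteins were not analysed here.

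The study asked how left ventricular cardiomyocytes of male C57Bl6/J mice, labelled as 8 weeks old, respond to 1 week of pressure overload when Uhrf1 is knocked down. Transverse aortic constriction (TAC) narrows the aorta and loads the left ventricle. All mice were infected at 10 days of age with AAV9, an adeno-associated virus that reaches the heart, with surgery 2 months later, so the control arms carried virus and a hairpin as well. The 4 groups of 3 arrays were sham with a scrambled hairpin (sham shControl), TAC with the scrambled hairpin (TAC shControl), sham with 1 hairpin against Uhrf1 (sham shUhrf1) and TAC with that hairpin (TAC shUhrf1). The promoter that drives the hairpins is not given in the sources used here, and a single hairpin sequence was used against Uhrf1. The labels call the arrays of a group replicates without saying whether they came from separate mice. The design text speaks of 4 samples analysed in triplicate, so the 3 arrays of a group may be technical repeats of 1 sample. The p-values below measure array-to-array spread only, and that spread may be technical.

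Ribosomal proteins assemble with ribosomal RNA in the nucleolus, and a subunit needs its proteins in matched amounts. Their mRNAs begin with a pyrimidine tract, the 5′ TOP motif, through which mTOR signalling controls their translation. A growing cardiomyocyte makes more ribosomes. Striated muscle also expresses Rpl3l, a paralog that can take the place of Rpl3, a large-subunit protein near the peptidyl transferase centre. Uhrf1 binds hemimethylated CG dinucleotides and recruits the maintenance DNA methyltransferase.

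Promoter windows are shown for 4 genes of the comparisons that the RefSeq promoter table holds: Rpl3l, Rpl4, Rps19 and Rps2. With limits given below, Rpl3l fell after TAC with the scrambled hairpin, and Rpl4 rose after TAC with the Uhrf1 hairpin. Rps19 was lower with the Uhrf1 hairpin in an average over both surgeries that was added later. Rps2 read lower with that hairpin without passing the test. Each window runs from 100 bases before to 20 bases after an annotated start, 5′ to 3′ on the plus strand of GRCm38.p6, with every CG dinucleotide in capitals. Rpl3l lies at chr17:24727726-24727845 (the first of its annotated starts), Rpl4 at chr9:64173287-64173406, Rps19 at chr7:24884492-24884611 (the first of its annotated starts) and Rps2 at chr17:24719963-24720082.
Rpl3l: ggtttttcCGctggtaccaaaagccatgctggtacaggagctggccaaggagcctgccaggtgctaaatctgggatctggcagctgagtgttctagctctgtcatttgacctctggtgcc
Rpl4: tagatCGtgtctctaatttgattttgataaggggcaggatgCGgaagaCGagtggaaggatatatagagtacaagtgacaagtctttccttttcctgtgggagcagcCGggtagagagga
Rps19: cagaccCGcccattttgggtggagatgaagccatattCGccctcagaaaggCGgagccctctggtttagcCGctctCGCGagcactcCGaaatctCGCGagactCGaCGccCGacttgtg
Rps2: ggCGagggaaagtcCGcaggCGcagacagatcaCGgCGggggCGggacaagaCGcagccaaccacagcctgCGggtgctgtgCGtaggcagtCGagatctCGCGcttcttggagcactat

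The printed windows held 1 CG in Rpl3l, 4 in Rpl4, 12 in Rps19 and 12 in Rps2. Over full windows of 300 bases (250 before to 50 after the start), 50 of the 59 genes had an entry, with 60 starts in all. Their median was 21.5 CG per window, against 7 over the 32841 windows of all 27018 genes in the table. The muscle paralog Rpl3l, with 2 CG in its first full window, was far below the median of the group. The hexamer CCGGAA, searched on both strands, was in 45.0% of the ribosomal windows and 14.9% of all windows. The pyrimidine hexamers TCTTTC or CTTTCC, which overlap each other, were searched on the gene strand from 40 bases before to 20 after the start, and at least 1 of them was in 18.3% of the ribosomal windows and 4.53% of all windows. TATAAA was in 10.0% of the ribosomal windows and 13.6% of all windows, on either strand. DNA methylation was not measured in the files used here, so these letters describe the promoters and say nothing of their state.

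Across the whole series, 12309 to 14908 probes were detected per array, and arrays of a group correlated at r = 0.980 to 0.987 over probes. Uhrf1 itself was detected on 0 of 3 sham shControl, 3 of 3 TAC shControl, 0 of 3 sham shUhrf1 and 2 of 3 TAC shUhrf1 arrays, so the knockdown cannot be checked in sham. The 13 measured cardiomyocyte markers of 14 listed averaged 13.9 to 14.1 on the log2 scale on every array, and none was called between any pair of groups compared here. In the hairpin comparison averaged over both surgeries, 2 of the 13 were called higher, Pln (0.64 ± 0.12, limma's adjusted p = 0.0123) and Ryr2 (0.46 ± 0.10, adjusted p = 0.0190). Markers of several other cell types rose after TAC in shControl. Called higher were 12 of 12 fibroblast, 9 of 11 measured endothelial, 3 of 10 macrophage and 2 of 6 smooth muscle and pericyte markers. Of all genes, 11.4% were. In shUhrf1, 6, 1, 4 and 0 were, against 3.96% of all genes, and the endothelial median was 0.07. The 2 measured erythroid markers were not called, with a median of -1.33 in shControl and 0.66 in shUhrf1. The mean of the fibroblast markers was 5.79 to 6.26 in sham shControl, 8.11 to 8.64 in TAC shControl, 5.58 to 6.69 in sham shUhrf1 and 7.55 to 8.26 in TAC shUhrf1. The part of these other cells in the ribosomal results was not tested, and in bulk RNA fewer cells of a type and less RNA per cell cannot be told apart.

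Of the 59 genes, 56 were detected on all 12 arrays. Rpl22l1, Rps23rg1 and Rpsa were detected on 3 of 12 arrays each and were close to background on the rest. Values below are background-corrected, quantile-normalised log2 intensities, and each gene is read from its brightest probe. A probe's brightness also depends on its own sequence, so levels are compared between arrays for 1 gene and not between genes.

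The subunit genes varied together from array to array. Over the 12 arrays the median correlation between pairs was 0.52 among the 30 large-subunit and stalk genes and 0.52 among the 21 small-subunit genes, against -0.00 over all pairs of the 8746 genes. With the group means taken out, the medians were 0.47 and 0.40, so the shared movement lay also between arrays of 1 group. The 8 paralogs and near names had a median of 0.05. The 73 detected mitochondrial ribosomal protein genes, which serve a separate ribosome, had a median of 0.49 among themselves. These points share their RNA and their array, and any error in scaling an array moves bright probes together, so the correlations are descriptions.

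Rps29, a small-subunit protein, followed the median of the other ribosomal protein genes most closely (r = 0.96 over 12 arrays), followed by Rps15 (0.95) and Rpl34 (0.94). At the other end stood Rpsa (-0.56), the small-subunit protein also known as the laminin receptor, which was near background, and Rps23rg1 (-0.51). Rpl3l (-0.31), Rps3a1 (-0.30), Rpl23 (-0.25) and Rpl4 (-0.20) also ran against the group. The spread within groups was small, with a median SD of 0.16 for the ribosomal protein genes and 0.22 for all genes.

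**Figure D1:**
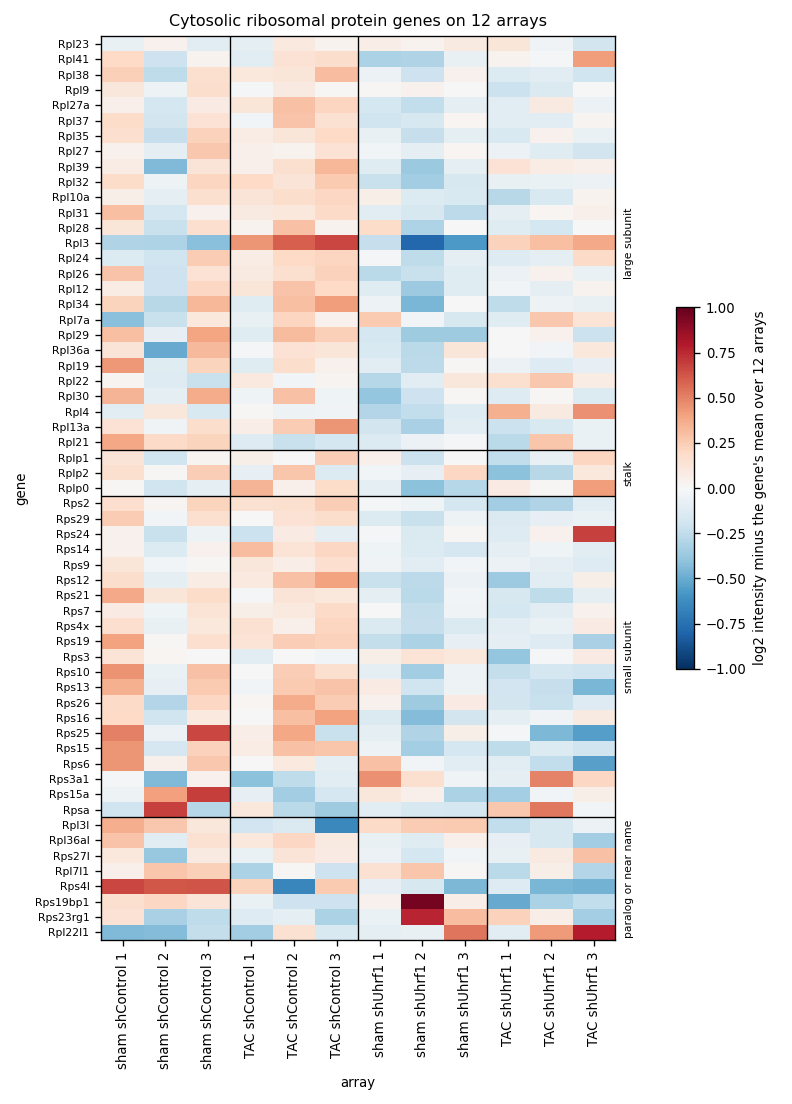
Heat map of the 59 genes (rows, by subunit and then by mean brightness) on the 12 arrays (columns). Colour is the log2 intensity minus the gene's own mean over the 12 arrays, cut at -1 and 1. Most subunit genes are red on sham shControl arrays 1 and 3 and on TAC shControl arrays 2 and 3, and blue on the shUhrf1 arrays, while Rpl3 separates TAC from sham.

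TAC raised Rpl3 with either hairpin, and in shControl it lowered the muscle paralog Rpl3l and Rps4l. In shControl, 1 of the 59 genes rose (Rpl3) and 2 fell (Rpl3l and Rps4l), where 18.9% of all genes were called (11.4% higher and 7.47% lower). In shUhrf1, Rpl3 and Rpl4 rose and no ribosomal protein gene fell, where 5.55% of all genes were called (3.96% higher and 1.59% lower). A gene was called where its brightest probe had a Benjamini-Hochberg adjusted p under 0.05 over all probes, from limma fitted on the 12 arrays.

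Rpl3 read 12.03, 12.02 and 11.92 on the sham shControl arrays and 12.78, 12.94 and 13.00 on the TAC shControl arrays. With the Uhrf1 hairpin it read 12.10, 11.55 and 11.76 in sham and 12.57, 12.64 and 12.72 after TAC. All 6 TAC arrays stood above all 6 sham arrays. The rise was 0.91 ± 0.15 (log2, SE; n = 3 and 3) in shControl, or 1.88-fold, with limma's adjusted p = 0.00192. In shUhrf1 it was 0.84 ± 0.15, or 1.78-fold (limma's adjusted p = 0.0102). The call in shControl held under every alternative run, with adjusted p up to 0.0187. In shUhrf1 it was lost only without sham shUhrf1 array 2, the lowest array, where the rise was 0.71 with adjusted p = 0.0527. The rise in shUhrf1 minus that in shControl was -0.08 ± 0.21 (limma's adjusted p = 0.938).

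Rpl3l, the striated muscle form, read 13.85, 13.76 and 13.60 on the sham shControl arrays and 13.30, 13.34 and 12.85 on the TAC shControl arrays. With the Uhrf1 hairpin it read 13.68, 13.74 and 13.75 in sham and 13.24, 13.33 and 13.43 after TAC. All 6 TAC arrays stood below all 6 sham arrays. The gene fell by 0.58 (SE 0.15) in shControl, or 1.49-fold, with limma's adjusted p = 0.0194. The call was lost without TAC shControl array 3, the lowest (-0.42, adjusted p = 0.0829), without sham shControl array 1, the highest (-0.52, adjusted p = 0.0642), and in a fit of only these 2 groups (adjusted p = 0.0585). In shUhrf1 the difference was -0.39 ± 0.15 and did not pass the test (limma's adjusted p = 0.150). The difference between these responses was 0.19 ± 0.21 (limma's adjusted p = 0.828).

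The log2 value of Rpl3 minus that of Rpl3l was taken on each array as an index. A single scaling factor per array would not change it. Here it was computed from quantile-normalised values, and quantile normalisation is not a single factor, so the index still depends on that step. Its zero has no meaning, since the probes differ, but its change between arrays does. It was -1.82, -1.73 and -1.68 in sham shControl and -0.51, -0.41 and 0.15 in TAC shControl. In shUhrf1 it was -1.58, -2.19 and -1.99 in sham and -0.68, -0.69 and -0.72 after TAC. The index was higher on all 6 TAC arrays, with means of -1.75 ± 0.07 and -0.26 ± 0.36 (SD, n = 3) in shControl and -1.92 ± 0.31 and -0.69 ± 0.02 in shUhrf1. No test is given for this pair, which was set together with both changes known.

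Rpl4, a large-subunit protein that lines the exit tunnel, read 8.41, 8.45 and 8.57 in sham shUhrf1 and 9.06, 8.79 and 9.16 in TAC shUhrf1. The shControl arrays read 8.59, 8.81 and 8.55 in sham and 8.72, 8.65 and 8.67 after TAC, with overlapping groups. The rise in shUhrf1 was 0.52 ± 0.14, or 1.44-fold (limma's adjusted p = 0.0453). It is a call at the edge, with an adjusted p of 0.0289 to 0.166 when single arrays were left out. It was lost without any 1 of the arrays sham shControl 1 or 3, TAC shControl 1, 2 or 3, sham shUhrf1 1, 2 or 3, and TAC shUhrf1 1 or 3. It was also lost in a fit of only these 2 groups (adjusted p = 0.0989) and with array weights (0.0675). In shControl the difference was 0.03 ± 0.14, and the rise in shUhrf1 exceeded it by 0.50 ± 0.19, which did not pass (limma's adjusted p = 0.436).

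Rps4l, named for its likeness to the small-subunit gene Rps4x, was the other gene that fell after TAC in shControl. Its arrays read 8.26, 8.21 and 8.22 in sham shControl and 7.81, 6.94 and 7.85 in TAC shControl. With the Uhrf1 hairpin they read 7.50, 7.43 and 7.14 in sham and 7.46, 7.14 and 7.11 after TAC. The sham shControl arrays were the highest 3 of the 12, and TAC shControl array 2 the lowest. The gene fell by 0.70 (SE 0.22) in shControl, or 1.62-fold (limma's adjusted p = 0.0420). Without TAC shControl array 2 the difference was -0.40 (adjusted p = 0.128), and the call was also lost without sham shControl array 1, 2 or 3, sham shUhrf1 array 1 or TAC shUhrf1 array 2 (adjusted p from 0.0513 to 0.0971). It was lost as well when arrays were scaled by the median of all probes (-0.39, adjusted p = 0.457), with no filter on dim probes (0.111) and in a fit of only these 2 groups (0.0835). In shUhrf1 the difference was -0.12 ± 0.22 (limma's adjusted p = 0.786).

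**Figure D2:**
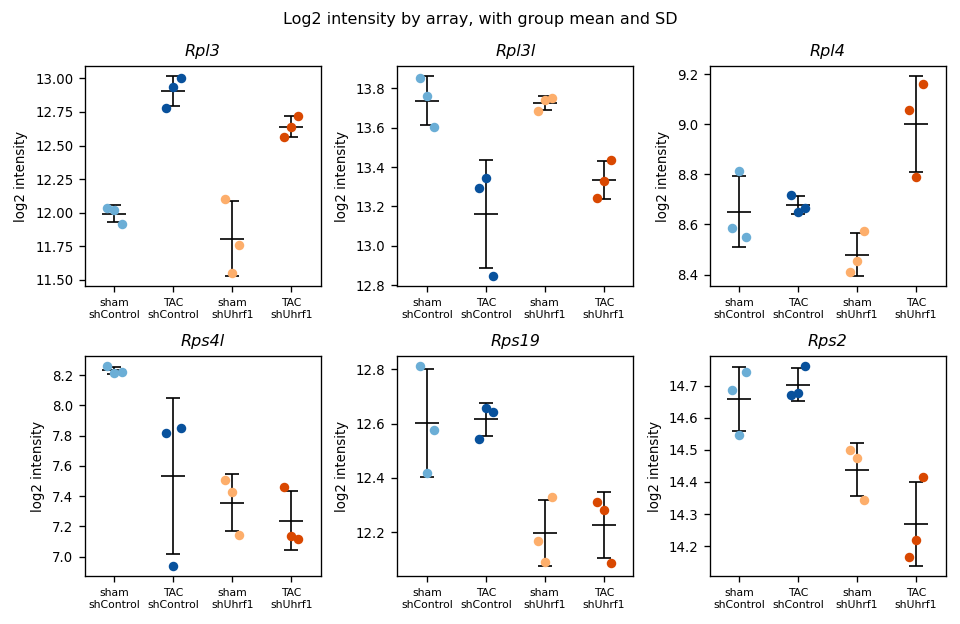
Log2 intensity (vertical axis, a separate range in each panel) of 6 genes in the 4 groups. Points are single arrays, and bars are the group mean and SD (n = 3). Rpl3 is higher and Rpl3l lower on all TAC arrays, Rps4l is highest in sham shControl, and Rps19 is lower on all 6 shUhrf1 arrays than on all 6 shControl arrays.

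No other large-subunit gene passed the test after TAC. In shControl 22 of its 27 genes lay above 0, with a median of 0.09, and in shUhrf1 21 did, with a median of 0.11. Rpl39, a small protein of the exit tunnel, read 0.26 ± 0.16 higher in shControl and 0.28 ± 0.16 higher in shUhrf1 (limma's adjusted p = 0.297 and 0.335). Rpl21 read 0.44 ± 0.15 lower in shControl, just outside the threshold (limma's adjusted p = 0.0530), from a dim probe that 1 of its other probes did not follow.

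The stalk recruits elongation factors to the ribosome. Its base protein Rplp0 read 6.96, 6.75 and 6.85 in sham shControl and 7.29, 7.0 and 7.13 in TAC shControl. In shUhrf1 it read 6.85, 6.54 and 6.67 in sham and 7.03, 6.96 and 7.37 after TAC. The groups did not overlap in either comparison, but neither difference passed the test (0.29 ± 0.15 with limma's adjusted p = 0.209, and 0.43 ± 0.15 with adjusted p = 0.115). Rplp1 differed by 0.12 ± 0.16 and 0.01 ± 0.16, and Rplp2 by -0.12 ± 0.17 and -0.23 ± 0.17.

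The small subunit was centred on 0 after TAC, with 11 of 21 genes above 0 and a median of 0.00 in shControl, and 10 of 21 and -0.01 in shUhrf1. None of its genes passed the test by its brightest probe. Rps6, the substrate of the S6 kinases, differed by -0.26 ± 0.16 in shControl and -0.35 ± 0.16 in shUhrf1 (limma's adjusted p = 0.304 and 0.229). Rps15a, read from a dim probe, differed by -0.55 ± 0.20 in shControl (limma's adjusted p = 0.0703) and -0.05 ± 0.20 in shUhrf1. Its sham shControl arrays were spread, at 5.80, 6.26 and 6.54. In shControl it was called with array weights (-0.65, adjusted p = 0.0319) and without sham shControl array 1 (-0.75, adjusted p = 0.0233). Leaving out other single arrays gave an adjusted p of up to 0.254.

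Among the paralogs and near names other than Rpl3l and Rps4l, none passed the test after TAC. Rps19bp1, which encodes a regulator of the deacetylase Sirt1 and is no ribosomal subunit gene, read 5.94, 6.86 and 5.97 in sham shUhrf1 and 5.40, 5.58 and 5.65 in TAC shUhrf1. Sham shUhrf1 array 2 stood far above the rest. The difference was -0.71 ± 0.21 (limma's adjusted p = 0.0650), and -0.41 without that array. Rpl7l1, Rpl36al, Rps27l, Rpl22l1 and Rps23rg1 are paralogs or retrocopies by name, and none was called in any comparison.

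Over all 59 genes the median TAC difference was 0.06 in shControl, against -0.04 for all genes, and 0.03 in shUhrf1, against 0.01. The groups did not overlap for 4 genes higher and 6 lower in shControl (background 19.2% and 19.3% of all genes), and for 12 higher and 2 lower in shUhrf1 (15.6% and 13.2%). As shares of the 59, these were 6.78% and 10.2% in shControl and 20.3% and 3.39% in shUhrf1. Arrays scaled by the median of all probes gave 2 higher and 1 lower in shControl (background 23.1% and 5.27%) and 34 higher and 0 lower in shUhrf1 (52.5% and 0.972%). Scaled by the median of probes detected on all arrays, 2 were higher and 15 lower in shControl (17.2% and 24.4%), and 3 higher and 13 lower in shUhrf1 (11.9% and 17.8%). Of the mitochondrial ribosomal protein genes, 71 of 73 lay below 0 in shControl, where 54.5% of all genes did. Their median was -0.25, and 7 fell, where 7.47% of all genes fell. Under the median of probes detected on all arrays, 56 of the 59 cytosolic genes lay below 0 in shControl as well. The median of all genes was -0.09 under that scaling. In shUhrf1 54 of the 73 mitochondrial genes lay below 0, where 48.7% of all genes did. Their median was -0.14, and none was called by limma. At an unadjusted p under 0.05, 9 were lower and 0 higher, against 820 and 1149 of all 8746 genes.

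With quantile-normalised arrays, most ribosomal protein genes read slightly lower with the Uhrf1 hairpin than with the scrambled hairpin, in sham and again after TAC. No single gene passed the test in either comparison by its brightest probe, though a second probe of Rpl27a did after TAC. The lower direction after TAC turned when arrays were scaled by the median of all probes. In sham 50 of 59 genes lay below 0, with a median of -0.17 against -0.00 for all genes. After TAC 45 of 59 did, with a median of -0.20 against 0.01 for all genes. By its brightest probe, no ribosomal protein gene was called by limma in sham, where 0.0457% of all genes were called, nor after TAC, where 2.89% were. At an unadjusted p under 0.05, 11 genes were lower and 1 higher in sham (background 6.72% and 6.47%), and 12 were lower and 2 higher after TAC (8.69% and 10.7%).

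Markers of other cells also differed between hairpins. After TAC, 11 of 11 endothelial markers lay below 0 with the Uhrf1 hairpin, with a median of -1.37, and 3 were called lower. Of the fibroblast markers 10 of 12 lay below 0, with a median of -0.39 and 1 called lower, and of the smooth muscle and pericyte markers 6 of 6 did, with a median of -0.52 and none called by limma (2 lower and 0 higher at an unadjusted p under 0.05). In sham the medians were 0.25 for endothelial, 0.26 for fibroblast and -0.41 for macrophage markers, and no marker was called. The part of these markers' cells in the ribosomal values was not tested.

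The sham and TAC hairpin comparisons share no array. In both of them 42 of the 59 genes (71.2%) lay below 0, against 29.5% of all genes, and 6 lay above 0 (Rpl7a, Rpl22, Rpl22l1, Rps3a1, Rps23rg1 and Rps24), against 31.2%. Of the 59 genes, 44 (74.6%) were among the brightest 10% of all genes. The hairpin shares here and below are set against genes of any brightness. Whether other genes as bright moved alike was not tested. Rpl22l1 and Rps23rg1 passed the detection filter through shUhrf1 arrays only, so the filter fixed their direction. Of the 56 genes detected on all 12 arrays, 42 lay below 0 in both and 4 above, against 31.0% and 31.5% of all genes so detected, a count added after the data had been seen. Scaling by the median of all probes left 9 of the 59 below 0 in both (8.93% of all genes), with 53 below 0 in sham and 10 after TAC. The median of probes detected on all arrays gave 44 (32.8% of all genes). By role, 24 of 30 large-subunit and stalk genes and 16 of 21 small-subunit genes were lower in both. Of the paralogs and near names 2 of 8 were, and of the mitochondrial ribosomal protein genes 34 of 73 (46.6%). After TAC the mitochondrial genes had a median of -0.01, against -0.20 for the cytosolic ones.

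**Figure D3:**
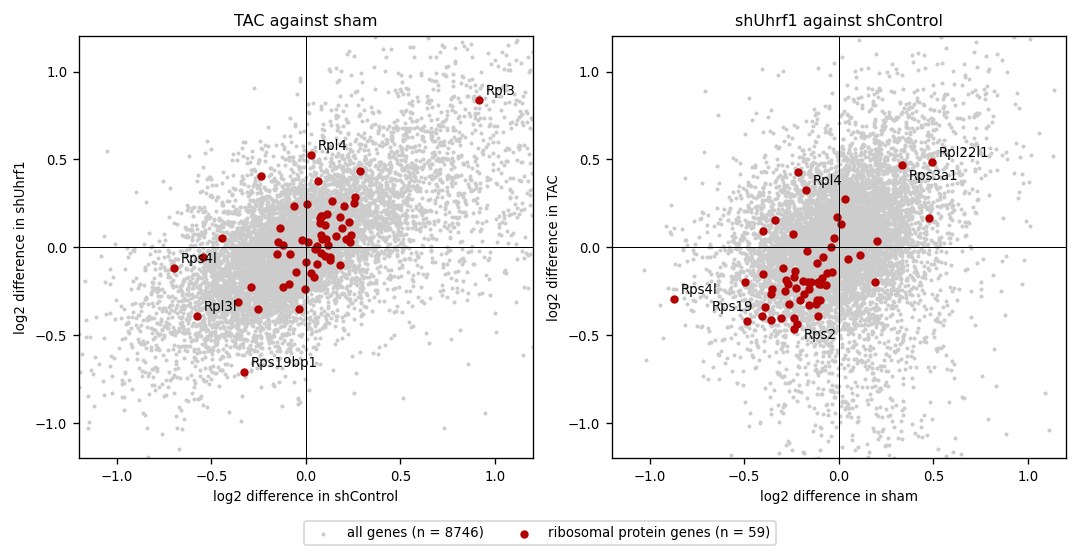
Each point is a gene, with its log2 difference in shControl against that in shUhrf1 (left, TAC against sham) and in sham against that in TAC (right, shUhrf1 against shControl). Grey points are all 8746 genes and red points the 59 ribosomal protein genes. The axes end at -1.2 and 1.2, which leaves out 476 genes on the left and 125 on the right, none of them ribosomal. Rpl3 stands apart at the upper right of the left panel, and 42 of the 59 red points lie at the lower left of the right panel.

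By array, the median deviation of the 59 genes from their own means was 0.16, -0.10 and 0.16 in sham shControl and 0.02, 0.15 and 0.16 in TAC shControl. It was -0.07, -0.21 and -0.05 in sham shUhrf1 and -0.12, -0.07 and -0.06 in TAC shUhrf1. The hairpin groups did not overlap after TAC. They overlapped in sham, because sham shControl array 2 read low. On that array 44 of the 59 genes lay below their mean, against 9 and 10 on the other arrays of its group. Without it, the median in sham was -0.28.

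Genes whose groups did not overlap were then counted. After TAC, 27 of 59 genes (45.8%) had all 3 shUhrf1 arrays below all 3 shControl arrays, against a background of 10.7% of all genes, and 2 (3.39%) had them above, against 13.2%. In sham the counts were 10 lower (16.9%), against 10.4%, and 1 higher, against 10.2%. These counts were not tested against each other, and the difference between the hairpin effects in sham and after TAC was called for no gene.

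Rps2, a small-subunit protein at the mRNA entry channel, was the gene nearest to the threshold after TAC. It read 14.67, 14.68 and 14.76 in TAC shControl and 14.17, 14.22 and 14.42 in TAC shUhrf1. In sham it read 14.69, 14.55 and 14.74 with the scrambled hairpin and 14.50, 14.47 and 14.34 with the Uhrf1 hairpin. All 6 shUhrf1 arrays stood below all 6 shControl arrays. The difference was -0.44 ± 0.13 after TAC (limma's adjusted p = 0.0800) and -0.22 ± 0.13 in sham (adjusted p = 0.457). It passed after TAC without background correction (adjusted p = 0.0199) and in the authors' value table (adjusted p = 0.0252), but its second probe read -0.19 ± 0.14 after TAC and 0.09 ± 0.14 in sham.

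Rps13, which lies at the subunit interface, and Rpl13a, which also takes part in interferon-dependent silencing of translation, followed Rps2 in order of p after TAC. Rps13 read 11.85, 12.14 and 12.16 in TAC shControl and 11.69, 11.65 and 11.42 in TAC shUhrf1, without overlap. Its difference was -0.46 ± 0.16 (limma's adjusted p = 0.128), while a second, dim probe read -0.017 ± 0.19. Rpl13a read 8.59, 8.77 and 8.96 in TAC shControl and 8.30, 8.37 and 8.45 in TAC shUhrf1, again without overlap. Its difference was -0.40 ± 0.14 after TAC and -0.30 ± 0.14 in sham (limma's adjusted p = 0.130 and 0.341).

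In sham, Rps4l had the lowest difference, -0.87 ± 0.22 (limma's adjusted p = 0.128), from the array values given above, without overlap. Rpl29, a large-subunit protein, read 11.14, 10.75 and 11.23 in sham shControl and 10.66, 10.48 and 10.48 in sham shUhrf1, without overlap. Its difference was -0.50 ± 0.17 (limma's adjusted p = 0.210), and after TAC it was -0.20 ± 0.17. Rps25, a small-subunit protein used by viral internal ribosome entry sites, differed by -0.48 ± 0.22 in sham and -0.42 ± 0.22 after TAC (limma's adjusted p = 0.342 and 0.319).

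Rps3a1, a small-subunit protein, went the other way. It read 9.64, 9.22 and 9.71 in sham shControl and 10.12, 9.82 and 9.63 in sham shUhrf1, and 9.25, 9.41 and 9.55 in TAC shControl and 9.57, 10.16 and 9.87 in TAC shUhrf1. Its groups overlapped in sham and not after TAC. The differences were 0.33 ± 0.19 in sham and 0.47 ± 0.19 after TAC (limma's adjusted p = 0.457 and 0.200).

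Rpl22l1, the paralog of Rpl22, was not well above background on any of the 6 shControl arrays, and was detected on 1 of 3 sham shUhrf1 and 2 of 3 TAC shUhrf1 arrays. It read 4.37 to 4.57 in sham shControl, 4.46 to 4.96 in TAC shControl, 4.71 to 5.34 in sham shUhrf1 and 4.71 to 5.60 in TAC shUhrf1. Rps23rg1, a retrocopy of Rps23, was detected on 0 of 6 shControl and 3 of 6 shUhrf1 arrays. Rpsa was detected on 1 sham shControl and 2 TAC shUhrf1 arrays. For these 3 genes no fold is given, since the dim groups have only an upper bound.

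A comparison of shUhrf1 with shControl averaged over sham and TAC was added after the data had been seen. By their brightest probes it called 2 ribosomal protein genes lower, Rps19 and Rps4l, and none higher, where 4.38% of all genes were called (1.28% lower and 3.1% higher). A second probe was called lower for Rpl27a (-0.48 ± 0.09, limma's adjusted p = 0.0140) and for Rps12 (-0.42 ± 0.10, adjusted p = 0.0323). The brightest probes of these genes read -0.19 ± 0.09 and -0.32 ± 0.11 and were not called. Rps19, a small-subunit protein mutated in Diamond-Blackfan anaemia in humans, read 12.81, 12.42 and 12.58 in sham shControl and 12.54, 12.66 and 12.64 in TAC shControl. With the Uhrf1 hairpin it read 12.17, 12.09 and 12.33 in sham and 12.31, 12.28 and 12.09 after TAC. All 6 shUhrf1 arrays were below all 6 shControl arrays.

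The averaged difference of Rps19 was -0.40 ± 0.10, or 1.32-fold (limma's adjusted p = 0.0371), with -0.41 ± 0.14 in sham and -0.39 ± 0.14 after TAC. That of Rps4l was -0.58 ± 0.15 (limma's adjusted p = 0.0464), and its groups overlapped when the surgeries were pooled. Its parts were -0.87 ± 0.22 in sham and -0.30 ± 0.22 after TAC (limma's adjusted p = 0.500). Both calls were fragile when single arrays were left out, with adjusted p up to 0.0877 for Rps19 and 0.105 for Rps4l. Rps19 kept its call without sham shControl array 2, sham shUhrf1 array 3 or TAC shUhrf1 array 1, and lost it without any of the others. Rps4l kept its call without TAC shControl array 2 or TAC shUhrf1 array 1, and lost it without any of the others. The count ranged from 0 to 3, where 182 to 438 of all 8746 genes were called. It came to 11 lower without background correction, 14 lower in the authors' value table and 0 when arrays were scaled by the median of all probes. Of all genes, 205, 194 and 14 were called lower, in the same order. All 6 shUhrf1 arrays lay below all 6 shControl arrays for 6 genes (10.2%), against 0.709% of all genes: Rps2, Rps19, Rps21, Rps29, Rpl13a and Rpl32.

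The lower values with the Uhrf1 hairpin depend on how arrays are brought to a common scale. The median intensity of the 59 genes as deposited, before any scaling, was 3705 to 5071 in sham shControl and 3772 to 5672 in TAC shControl. It was 3543 to 3661 in sham shUhrf1 and 4361 to 6997 in TAC shUhrf1. In sham the shUhrf1 arrays were the lower ones before scaling, and after TAC they were not. The highest intensity on an array, before scaling, was 28639 to 33280 in shControl and 36224 to 39770 in shUhrf1, without overlap. The part of this difference at the bright end in the ribosomal values was not tested. More probes were also detected on the TAC shUhrf1 arrays (14440 to 14908) than on the TAC shControl arrays (13375 to 14544).

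Scaling by the median of all probes moved the median of all genes to 0.45 for TAC against sham in shUhrf1 and to 0.28 for the hairpin after TAC. Under it, the ribosomal median for the hairpin after TAC turned from -0.20 to 0.15. No ribosomal protein gene kept its shUhrf1 arrays below its shControl arrays after TAC, where 2.12% of all genes had them so. Scaling by the median of probes detected on all arrays gave -0.15, with 16 such genes (background 12.1%). In sham, 11 genes were lower and 2 higher without overlap under the first (background 8.92% and 13.6%). Under the second, 22 were lower and 2 higher (14.1% and 8.48%). The 5 scalings are of 2 kinds: 3 are quantile scalings that read nearly alike, and the 2 median scalings differ by 1 factor per array, so that they give the same values relative to all genes. Set against the median of all genes under the same scaling, the ribosomal median was lower in both kinds, by 0.13 to 0.29 in sham and by 0.13 to 0.21 after TAC. Below the median of all genes in both hairpin comparisons lay 43 of the 59 genes with quantile scaling, against 30.3% to 30.6% of all genes, and 42 with median scaling, against 28.5%.

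**Figure D4:**
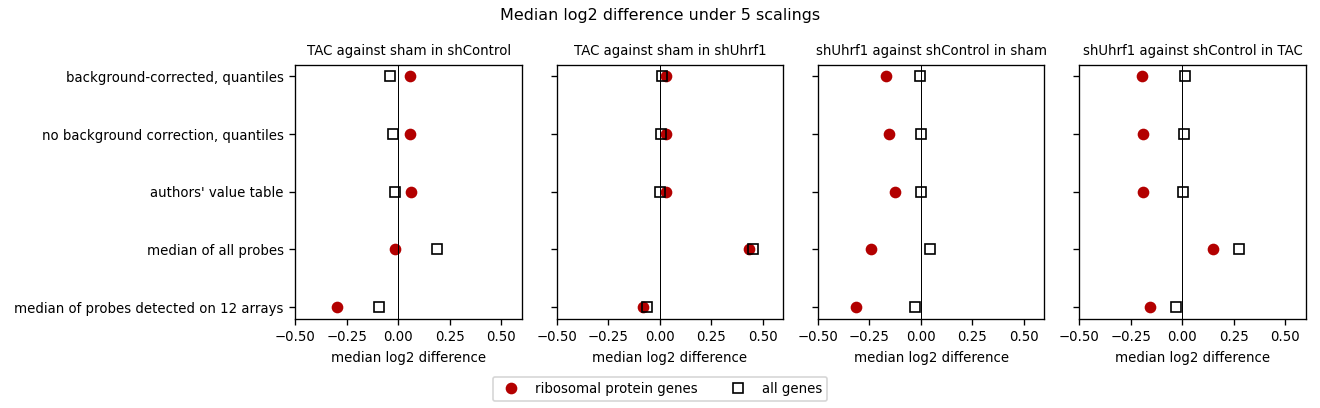
Median log2 difference (horizontal axis) of the 59 ribosomal protein genes (red circles) and of all genes (open squares) under 5 ways of scaling the arrays (rows), for the 4 comparisons between pairs of groups. The circles lie left of the squares in every row of both hairpin panels, while in the first TAC panel they lie right of the squares under the quantile scalings and left of them under the median scalings.

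For TAC in shControl the ribosomal median relative to all genes changed sign with the scaling, from 0.10 above to 0.21 below, so no direction is given for the group as a whole. Rpl3 kept its rise under all 5 scalings, at 0.59 to 0.93 in shControl and 0.72 to 1.23 in shUhrf1. Rpl3l stayed below 0 under all 5, at -0.96 to -0.57 in shControl and -0.60 to -0.09 in shUhrf1.

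The difference between the TAC responses with the Uhrf1 and the scrambled hairpin was called for no ribosomal protein gene by limma, and for 0% of all genes. At an unadjusted p under 0.05 there were 2 ribosomal protein genes, Rpl4 and Rpl21, both higher, where 4.6% of all genes were higher and 5.31% lower. Rpl21 had a difference of 0.50 ± 0.21 (limma's adjusted p = 0.469) by its brightest probe. Its other detected probes read 0.34 ± 0.26 and -0.30 ± 0.42. The brightest probe read 6.49, 6.29 and 6.32 in sham shControl and 5.97, 5.88 and 5.92 in TAC shControl. It lay between 5.83 and 6.37 on the shUhrf1 arrays. Over the 59 genes the median was -0.01, against 0.03 for all genes.

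Other genes of the translation machinery were read from lists. Their counts stand against 11.4% of all genes called higher and 7.47% lower after TAC in shControl, and 3.96% and 1.59% in shUhrf1. Of the 31 listed elongation factors and other genes with TOP mRNAs, 25 were measured. After TAC in shControl 3 rose and none fell: Eef1a1, the factor that brings aminoacyl-tRNA to the ribosome (1.61 ± 0.26, limma's adjusted p = 0.00171), Pabpc1, the poly(A)-binding protein (0.99 ± 0.22, adjusted p = 0.00988), and Vim, which encodes the filament protein vimentin (2.29 ± 0.39, adjusted p = 0.00256). In shUhrf1 only Eef1a1 was called (1.03 ± 0.26, limma's adjusted p = 0.0383). With 3 of 25 higher in shControl and 1 of 25 in shUhrf1, the list was near the shares of all genes. Eef1a1 and Vim are also strongly expressed in cells other than cardiomyocytes, whose markers rose on the same arrays, and the part of those cells was not tested.

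Of 25 listed initiation genes 21 were measured, and 3 rose after TAC in shControl: Eif1a (0.54 ± 0.12), Eif4a1, the RNA helicase of the cap-binding complex (0.60 ± 0.14), and Eif5 (0.43 ± 0.13). In shUhrf1 Eif1a was called (0.58 ± 0.12). With 3 of 21 and 1 of 21 higher, the initiation genes were also near the shares of all genes. Of 82 listed ribosome assembly factors 63 were measured. After TAC in shControl Rrp12 (0.48 ± 0.13) and Bop1 (0.59 ± 0.18) rose, and Rrp15 (-0.74 ± 0.21), Tsr2 (-0.62 ± 0.19) and Ebna1bp2 (-0.41 ± 0.12) fell. In shUhrf1 Rrp12 was called (0.69 ± 0.13).

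Of 18 listed genes for transcription of ribosomal RNA 14 were measured, and Taf1a, a subunit of the polymerase I selectivity factor, fell after TAC in shControl (-0.71 ± 0.14). Of 31 listed genes of mTOR signalling to translation 22 were measured. Eif4ebp1, the repressor of cap-dependent translation that mTOR inactivates, rose after TAC in shControl (0.51 ± 0.15) and in shUhrf1 (0.64 ± 0.15). Lamtor2, a subunit of the lysosomal platform of mTOR, was lower in both (-0.59 ± 0.16 each) and was called in both. Of 8 listed S6 kinase genes 2 were measured, and neither was called. No gene of these lists was called by limma between hairpins in sham or after TAC. The averaged hairpin comparison called 2 elongation or TOP genes higher and 1 lower, 1 initiation gene and 1 mTOR gene higher, and 2 genes of ribosomal RNA transcription lower (background 3.1% higher and 1.28% lower).

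Several genes had more than 1 detected probe, and these did not always read alike. Of 14 such genes, all probes shared a sign in 7 for either TAC comparison and in 11 for either hairpin comparison. For Rps24, a small-subunit protein, the dim probes read 0.80 ± 0.18 (limma's adjusted p = 0.0239) and -0.32 ± 0.18 for TAC in shUhrf1, while the bright probe read 0.24 ± 0.19. For Rpl27a, a second probe was called lower for the hairpin after TAC (-0.59 ± 0.13, limma's adjusted p = 0.0355), while its brightest probe read -0.23 ± 0.13. For Rps13, a dim second probe was called lower for TAC in shControl (-0.58 ± 0.19, limma's adjusted p = 0.0489), while the bright probe read -0.0064 ± 0.16. Ribosomal protein genes have many near-identical processed pseudogenes, and transcripts of these could reach the same probes. How much each probe takes up from them was not tested.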

How the data were processed

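Biotin-labelled cRNA from cardiomyocytes of the left ventricle was read on Illumina arrays, per the labels. The authors deposited a table of probe intensity on a linear scale, not normalised, with a detection p-value for each probe and array, per the file headers. They also deposited a value table on a log2 scale. The submitters' processing notes name lumi for it, without a version, and it served as an alternative.

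Intensities were background-corrected from the detection p-values and quantile-normalised with limma 3.58.1 (neqc, offset 16) in R 4.3.3. Probes with a detection p under 0.01 on 3 or more of 12 arrays were tested with lmFit and eBayes, with 1 mean per group. P-values were adjusted by Benjamini-Hochberg over all tested probes, and a gene was called under 0.05. Gene symbols came from the platform table: of 45281 probes 34885 had 1 symbol, 18 had several and 10378 had none. A gene was read from its brightest detected probe.

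Samples were grouped by their titles. The number of arrays limits the precision. Named were Rpl3, Rpl3l, the stalk genes, Rpsa, Rps6, paralogs and near names, called genes, the 3 highest and 3 lowest differences of a comparison, and, with fewer than 3 calls, the 3 smallest p. Of the other lists up to 4 genes per comparison were named. Genes outside this rule were chosen after their values were seen. They were Rps29, Rps15, Rpl34, Rpl23, Rps21, Rpl32 and those named for their other probes or for sharing a sign. The members and lists were chosen with earlier results of these data known. The fit was tested on simulated data. Alternatives were other scalings, filters, probe rules, samples and array weights, and leaving out each array. Promoter windows are RefSeq's, on GRCm38.p6.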

Additional observations from a re-analysis of the deposited data

How the results depend on the processing

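Arrays left out singly gave 2 to 4 called ribosomal protein genes for TAC in shControl and 0 to 2 for TAC in shUhrf1. There were 0 for the hairpin in sham, after TAC and in the difference between the TAC responses, and 0 to 3 for the averaged hairpin comparison. Of all 8746 genes, 890 to 1688, 118 to 510, 1 to 5, 9 to 384, 0 to 99 and 182 to 438 were called. The medians ranged from -0.050 to 0.12, -0.0048 to 0.078, -0.28 to -0.12, -0.22 to -0.15, -0.085 to 0.11 and -0.23 to -0.16, in the same order. The single value without sham shUhrf1 array 2, 0 calls for TAC in shUhrf1, dropped Rpl3, and 118 of all genes were called in that run. Single genes whose sign turned were Rpl3l for the hairpin in sham (-0.079 to 0.044) and Rpl3 for the difference between the TAC responses (-0.21 to 0.070).

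Without background correction 1 gene was called for the hairpin after TAC and 11 for the averaged comparison, and with the values the authors deposited there were 3 and 14. Scaling by the median of all probes gave 7 calls for TAC in shUhrf1 and 0 for the averaged comparison, with medians of 0.43 for TAC in shUhrf1, 0.15 for the hairpin after TAC, 0.44 for the difference between the TAC responses and -0.067 for the averaged comparison. Scaling by the median of probes detected on all arrays gave 5 calls for TAC in shControl and 4 in shUhrf1, with medians of -0.30, -0.080, -0.32 for the hairpin in sham, and 0.21 for the difference between the TAC responses. The averaged comparison had 4 calls with no filter, 5 with probes detected on all 12 arrays, 5 with the mean of a gene's probes and 5 with array weights. Over all genes these runs called 284 of 19057, 364 of 6677, 408 of 8746 and 490 of 8746. TAC in shUhrf1 had 1 with array weights, and with only the groups compared TAC had 1 in shControl and 1 in shUhrf1. Of all 8746 genes, 403, 1388 and 306 were called, in the same order.

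The sign turned with scaling by the median of all probes for Rps6 (TAC in shUhrf1, 0.099), Rpl3 (hairpin after TAC, 0.072, and difference between the TAC responses, 0.36) and Rps26 (difference between the TAC responses, 0.19). With the median of detected probes it turned for Rpl39 (TAC in shControl, -0.10) and Rpl3 (difference between the TAC responses, 0.13), and with array weights for Rpl3l (hairpin in sham, 0.023). The cause was not tested. Apart from single arrays left out, the other 91 summary values stayed within 1.5 times for counts and within the spread between arrays for medians, though the median for TAC in shControl was -0.016 with scaling by the median of all probes.

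Whether the replicate numbers pair the arrays is not known. Of 18 same-numbered pairs, 4 had deviations correlated above 0.1 (range -0.16 to 0.25). With so few arrays per group, these correlations cannot exclude a pairing. With the replicate number as a block, 1 gene was called for TAC in shUhrf1, without Rpl4 (limma's adjusted p = 0.0658). None was called in the averaged comparison, with adjusted p = 0.0578 for Rps19 and 0.0506 for Rps4l. Of all 8746 genes, 478 and 296 were called in these comparisons. Only the groups compared gave no separate value for the last 2 comparisons, and the chip as a block was not run, because the files used here name no chip. Dim probes near background limit Rpl22l1, Rps23rg1 and Rpsa.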
